A study of Mus musculus with 8 samples.

Results

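The factors of the hair follicle bud and its stem cells, Lhx2, Sox9, Nfatc1, Tcf7l1, Tcf7l2, Lgr5 and Cux1, were measured through late embryonic development of mouse dorsal skin. Every probeset annotated with exactly 1 of these 7 symbols was taken, which gave 26 probesets of 34945 that carry a single gene symbol and 7 genes of 18193. Lhx2 had 1 probeset, Sox9 had 3, Nfatc1 had 5, Tcf7l1 and Lgr5 had 2 each, Tcf7l2 had 4 and Cux1 had 9. The study profiled dorsal skin of wild-type embryos during epidermal differentiation, with 2 arrays of E14.5, 3 arrays of E16.5 and 3 arrays of E18.5 embryos (E for embryonic day). The arrays were Affymetrix Mouse Genome 430 2.0 arrays, on which several short probes make up the probeset that reports a transcript. No strain, sex or treatment was given, and replicates were numbered in accession order. The labels do not say that the arrays of a stage came from separate embryos, so a p-value here measures only the spread from sample to sample, which may be technical.

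Hair follicles begin as epidermal placodes that grow down as buds into the dermis, and the follicles of the mouse back start in successive waves before birth. Lhx2, Sox9, Nfatc1 and Tcf7l1 are transcription factors known from the bud or from the bulge, the niche where the stem cells of the mature follicle reside. Tcf7l1 (formerly Tcf3) and Tcf7l2 (formerly Tcf4) bind β-catenin and read out Wnt signals, Lgr5 is a receptor for R-spondins, which strengthen Wnt signals, and Cux1 is a homeodomain repressor found in the inner root sheath, the layer that moulds the growing hair.

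The tissue label was checked against 8 keratinocyte and 8 dermal fibroblast markers, all of which lay above background on all 8 arrays. Background was the 95th percentile of 80 olfactory and vomeronasal receptor probesets on each array, a signal of 33.6 to 92.2, and 61.4% to 74.6% of probesets lay above it. The E14.5 arrays stood apart from the rest. The ratio of 3′ to 5′ signal of the β-actin control probesets was 6.49 and 6.91 on the E14.5 arrays, 1.11 to 1.14 on the E16.5 arrays and 1.35 to 1.37 on the E18.5 arrays. The median signal over all probesets was 60.8 and 63.4 on the E14.5 arrays, 120.1 to 128.9 on the E16.5 arrays and 137.5 to 152.6 on the E18.5 arrays. Stage and array preparation therefore cannot be told apart in any comparison with E14.5, and E18.5 against E16.5 is given first. The E18.5 and E16.5 arrays also differed from each other without overlap in these measures. Every E18.5 array had a background of 62.2 or more, while no E16.5 array exceeded 53.2. The Gapdh ratio of 3′ to 5′ signal was 0.69 to 0.81 on E18.5 arrays, against 0.84 to 0.87 for E16.5. Whether array preparation had a part in E18.5 against E16.5 was not tested. These are bulk samples, in which fewer cells of a type and less RNA per cell cannot be told apart.

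The called members all rose between E16.5 and E18.5. Of the 26 probesets, 7 rose and 0 fell at an adjusted p under 0.05, and they belonged to Lhx2, Sox9, Nfatc1, Tcf7l2 and Cux1. Over all 34945 probesets, 10.7% were called in this comparison, 6.27% as higher and 4.44% as lower at E18.5. The median log2 difference was 0.42 over the 26 probesets, against 0.12 over all probesets, and 22 of the 26 differences were above 0. For 15 of the 26 the E18.5 arrays did not overlap the E16.5 arrays, which was the case for 36.8% of all probesets. Neither Tcf7l1 nor Lgr5 had a called probeset. With E16.5 replicate 3 left out, 3 of the 26 were called, and 1208 of all probesets in place of 3742.

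**Figure D1:**
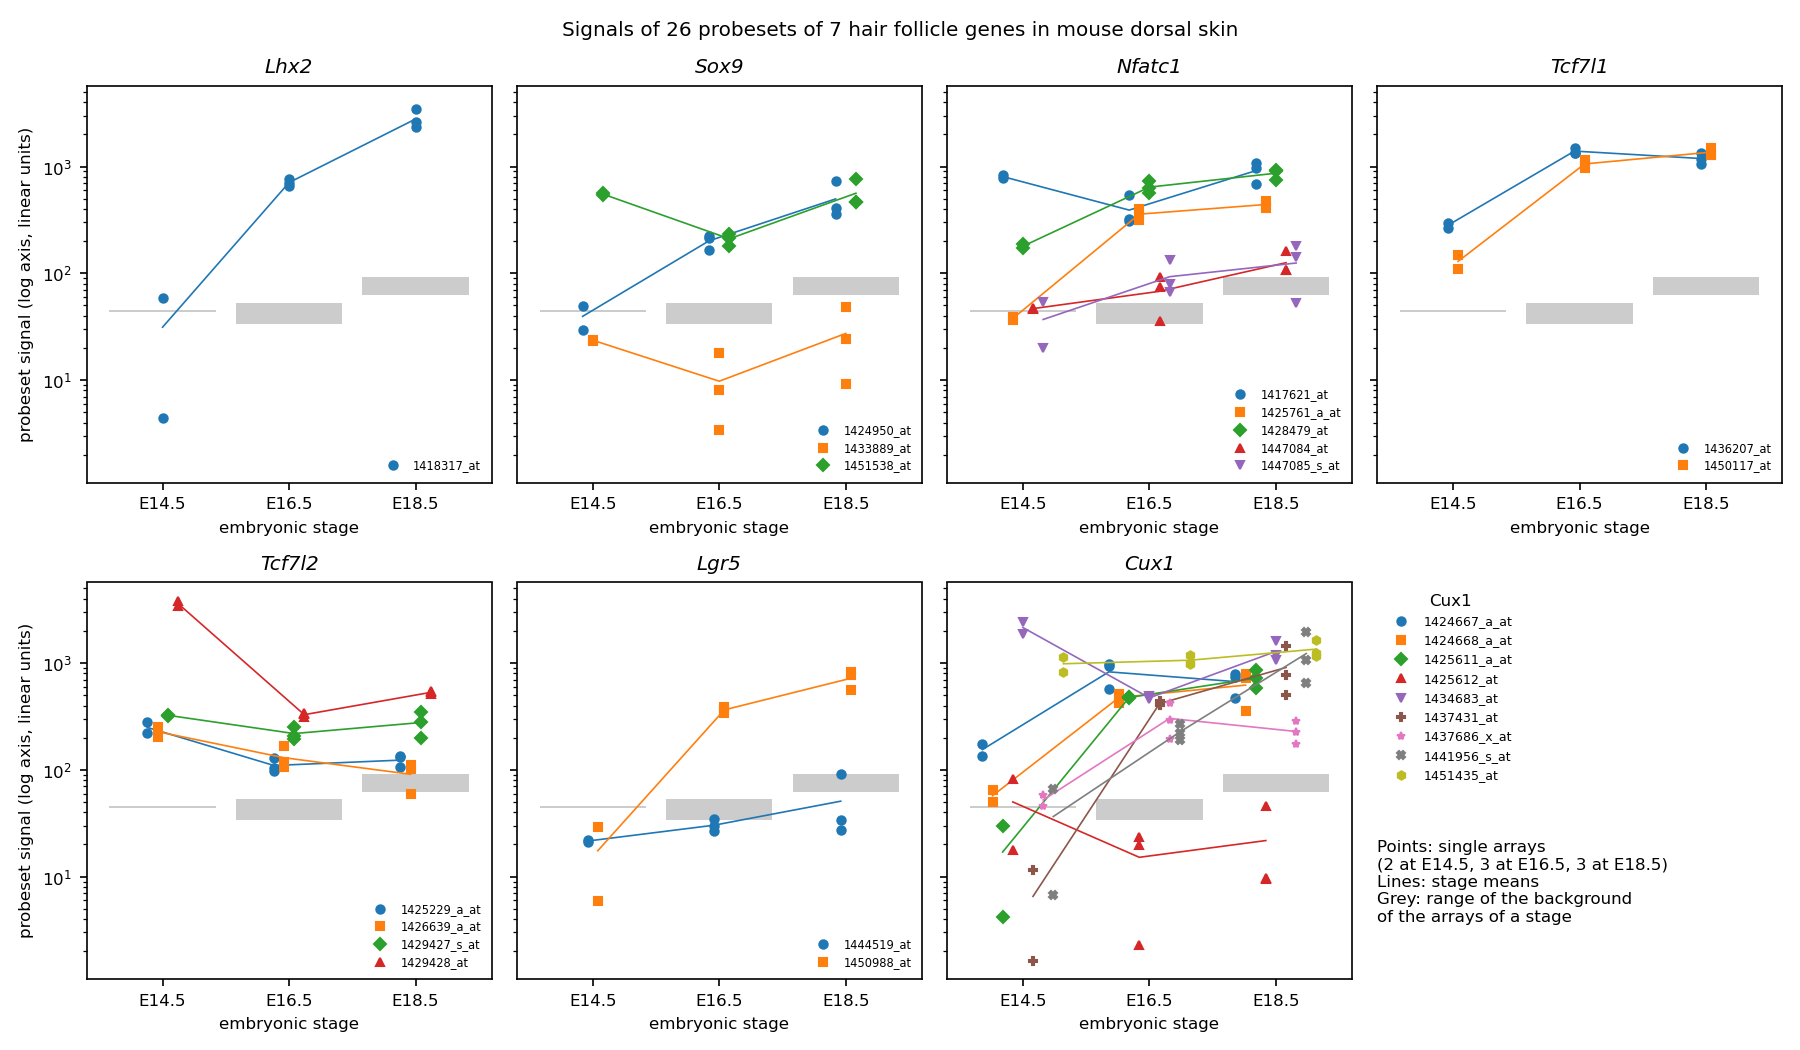
Signals of the 26 probesets by stage, 1 panel per gene, on a log axis in linear signal units, with 1 point per array (2, 3 and 3 for the 3 stages), lines through stage means and grey bands for the range of background of a stage's arrays. Lhx2 and Lgr5 1450988_at are at or near background at E14.5, while Tcf7l2 1429428_at and Cux1 1434683_at stand higher at E14.5 than at E16.5.

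Sequence upstream of the gene start was read for members found in RefSeq's promoter table, on the GRCm38.p6 build. The search for members passed over all entries of 1 chromosome. It found Lhx2 with 2 starts, Tcf7l1 with 1, Tcf7l2 with 2 and Cux1 with 1. Windows were thus read for 4 of the 7 genes, and none for Sox9, Lgr5 and Nfatc1. A member on the chromosome passed over would have no window even with an entry in that table. Tcf7l1 and Tcf7l2, related factors, had called probesets that went opposite ways from the first stage to the second. Stage and array preparation cannot be told apart in that step. The 250 bases before the start are printed for these 2 genes and for Lhx2, whose signal rose in both steps. They lie at chr2:38339031-38339280 on the plus strand for the first start of Lhx2, at chr6:72789046-72789295 on the minus strand for Tcf7l1 and at chr19:55741560-55741809 on the plus strand for the first start of Tcf7l2. Each runs 5′ to 3′ and ends at the base before the start, and capitals mark the match to a motif.
Lhx2: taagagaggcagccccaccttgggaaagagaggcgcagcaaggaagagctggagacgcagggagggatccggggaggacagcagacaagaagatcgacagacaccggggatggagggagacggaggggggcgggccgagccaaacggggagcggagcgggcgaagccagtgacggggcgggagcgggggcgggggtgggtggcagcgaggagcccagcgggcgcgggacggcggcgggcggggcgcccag
Tcf7l1: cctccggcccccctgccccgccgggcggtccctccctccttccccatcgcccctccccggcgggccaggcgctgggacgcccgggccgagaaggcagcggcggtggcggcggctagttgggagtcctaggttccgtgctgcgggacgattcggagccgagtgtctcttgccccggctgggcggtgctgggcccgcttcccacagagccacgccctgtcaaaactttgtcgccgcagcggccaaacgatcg
Tcf7l2: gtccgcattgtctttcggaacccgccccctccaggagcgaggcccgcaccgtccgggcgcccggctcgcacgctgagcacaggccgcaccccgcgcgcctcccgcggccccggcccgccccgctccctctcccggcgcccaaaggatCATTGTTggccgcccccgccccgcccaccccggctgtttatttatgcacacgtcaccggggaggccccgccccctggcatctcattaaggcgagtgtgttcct

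These 3 windows are rich in G and C. Their GC content was 72.8% for Lhx2, 73.6% for Tcf7l1 and 72.8% for Tcf7l2, with 25, 29 and 30 CpG dinucleotides, against a median of 52.4% and 6 CpG over windows of the same length at 32851 promoters. Of the windows not printed, the second start of Lhx2 had 68.4% GC and Cux1 had 62.8%. The second start of Tcf7l2 had 40.8% GC, below that median, with 7 CpG. Each of 6 motifs was searched on both strands in the 6 windows of the 4 genes, and none of them contains another. The capitals in the Tcf7l2 window are CATTGTT, 103 bases upstream of the start, the reverse strand of the SOX motif AACAATG, which 3.29% of all promoters hold. The TCF/LEF motif, CTTTGAT or CTTTGAA, was in 0 of the 6 windows and in 7.48% of all promoters. The letters TAATTA of LIM homeodomain factors and the CCAAT box were also in 0 of the 6, against 4.84% and 33.8% of all promoters. The remaining matches were TATAAA at the second start of Tcf7l2, held by 12.4% of promoters, and the NFAT core TGGAAA at Cux1, held by 18.6%. A match is a run of letters and not a shown binding site, and no match says only that these letters are not in this window.

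Lhx2, a LIM homeodomain factor of the bud and bulge, rose in both steps. Probeset 1418317_at had signals of 4.39 and 58.2 at E14.5, then 702, 767 and 656 at E16.5, and 3426, 2595 and 2329.6 at E18.5. No 2 stages overlapped, and 1 of the 2 E14.5 arrays was at background. The mean signal was 2783 ± 572 at E18.5 and 708 ± 55.5 at E16.5 (SD, n = 3 each). The log2 difference of signal + 16, the scale of all differences here, was 1.93 ± 0.38 (SE), a 3.82-fold rise with adjusted p = 0.0106 that ranked at the 99.5th percentile of all probesets. Leaving out E16.5 replicate 3 put the adjusted p at 0.0516 with a log2 difference of 1.88, and a pseudocount of 1 in place of 16 put it at 0.0939. At E16.5 the signal was at least 10.8-fold higher than at E14.5 (adjusted p = 7.71e-06), a bound taken against background because 1 E14.5 array did not exceed it.

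Sox9, a Sox-family factor needed in the early bud for the stem cell lineage, had 2 probesets above background that both rose at E18.5. Probeset 1451538_at gave 566 and 538 at E14.5, then 234, 216 and 182 at E16.5, and 757, 468 and 461 at E18.5. The E16.5 arrays were below those of both other stages. It rose 2.50-fold at E18.5 against E16.5, a log2 difference of 1.32 ± 0.21 with adjusted p = 0.00465, and kept that call in every alternative run. Probeset 1424950_at gave 49.7 and 29.4 at E14.5, then 216, 225 and 164 at E16.5, and 727, 408 and 357 at E18.5. Its stages rose in order without overlap. The E18.5 rise was 2.27-fold (log2 1.18 ± 0.30, adjusted p = 0.0304), and the call was lost when E18.5 replicate 1 or any 1 of the E16.5 arrays was left out, with adjusted p between 0.0736 and 0.136.

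The 2 Sox9 probesets went opposite ways between E14.5 and E16.5, although they share an annotated transcript record. Probeset 1451538_at fell by 1.33 on the log2 scale at E16.5, a signal 2.52-fold lower than at E14.5 (adjusted p = 0.000626). Probeset 1424950_at rose at least 3.39-fold at E16.5 (adjusted p = 0.000364). The direction of Sox9 before E16.5 thus depended on the probeset read. Averaged over its probesets the gene's E16.5 against E14.5 difference was -0.0035, with adjusted p = 0.993. The third probeset, 1433889_at, which is part of that average, stayed at background on all 8 arrays, with signals of 3.38 to 48.6.

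Nfatc1, a calcineurin-dependent factor that keeps bulge stem cells quiescent, had 1 rising probeset of 5 at E18.5. Probeset 1417621_at gave 837 and 773 at E14.5, then 538, 324 and 311 at E16.5, and 1079, 976 and 685 at E18.5. As with Sox9 1451538_at, the E16.5 arrays were the lowest and did not overlap those of E18.5. The mean was 913 ± 205 at E18.5 and 391 ± 127 at E16.5 (SD, n = 3 each), a log2 rise of 1.21 ± 0.23 with adjusted p = 0.0102. Without E16.5 replicate 3 the adjusted p was 0.0556, and for the mean of the 5 probesets the difference was 0.60 with adjusted p = 0.0564.

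The other Nfatc1 probesets differed from 1417621_at before E16.5. Probeset 1417621_at fell by 1.06 at E16.5 against E14.5 (SE 0.26, adjusted p = 0.0049). Probeset 1428479_at gave 188 and 171 at E14.5, then 628, 729 and 567 at E16.5, and 914, 755 and 928 at E18.5. It rose by 1.74 ± 0.18 at E16.5 against E14.5 (adjusted p = 9.83e-06) and differed by 0.42 ± 0.16 at E18.5 against E16.5 (adjusted p = 0.118), without overlap of the arrays in either step. Probeset 1425761_a_at was at background on both E14.5 arrays and rose at least 6.12-fold at E16.5 (adjusted p = 1.12e-06), with a difference of 0.29 at E18.5 against E16.5 (adjusted p = 0.354). The pair 1447084_at and 1447085_s_at, which share a record, had stage means of 36.96 to 126. Among the 3 comparisons they passed the threshold for E18.5 against E14.5, 1447084_at with a difference of 1.15 (adjusted p = 0.0205). The E14.5 signals of 1447084_at, 47.5 and 45.9, lay just above the backgrounds of 43.9 and 45.7, so this size is uncertain. For 1447085_s_at (adjusted p = 0.035) no size is given, since an array of each of these stages was at background and the stages overlapped. Each kept its call in 5 of 8 fits without 1 array, and both lost it with median centring (adjusted p = 0.858 and 0.648). The call of 1447084_at was lost without E14.5 replicate 1 or 2 or E18.5 replicate 2 (adjusted p 0.0615 to 0.0728), and that of 1447085_s_at without E14.5 replicate 1 or E18.5 replicate 1 or 2 (adjusted p 0.0926 to 0.245). With all 5 averaged, Nfatc1 was higher at E16.5 than at E14.5 by 0.98 (adjusted p = 0.00167), the opposite of its brightest probeset. That mean takes in the E14.5 signals of 1425761_a_at, which were at background, so its size is uncertain.

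Tcf7l1, the TCF member known as a repressor in embryonic skin progenitors and the bulge, had 2 probesets that both rose at E16.5. Probeset 1436207_at gave 267 and 297 at E14.5, then 1336, 1502 and 1347 at E16.5, and 1165, 1065 and 1334 at E18.5. Probeset 1450117_at gave 109.8 and 149 at E14.5, then 1145, 1049.8 and 975 at E16.5, and 1506, 1292 and 1295 at E18.5. Both were low at E14.5 and high at both later stages, and the E18.5 arrays lay below the E16.5 arrays in 1436207_at and above them in 1450117_at. At E16.5 they rose by 2.24 ± 0.15 (adjusted p = 4.96e-07) and 2.89 ± 0.17 (adjusted p = 2.12e-07) against E14.5. For E18.5 against E16.5 the differences were -0.23 ± 0.14 (adjusted p = 0.301) and 0.36 ± 0.15 (adjusted p = 0.158), so no change was detected there.

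Tcf7l2, the related TCF factor, fell where Tcf7l1 rose. Probeset 1429428_at gave 3846 and 3398 at E14.5, then 332, 313 and 339.6 at E16.5, and 542, 512 and 539.6 at E18.5. Its E14.5 arrays were far above all others, and its E18.5 arrays were above all E16.5 arrays. It was 10.6-fold lower at E16.5 than at E14.5 (log2 -3.40 ± 0.14, adjusted p = 3.75e-08) and then rose 1.59-fold at E18.5 against E16.5 (log2 0.67 ± 0.13, adjusted p = 0.0103). The E18.5 rise had an adjusted p of 0.0543 without E16.5 replicate 2, and the mean of the 4 probesets gave 0.16 (adjusted p = 0.51).

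All 4 Tcf7l2 probesets were lower at E16.5 than at E14.5 without overlap, by very different amounts. The arrays of these stages did not overlap, in either direction, for 73.7% of all probesets. Probeset 1425229_a_at fell by 1.08 ± 0.26 (adjusted p = 0.00443). The differences were -0.75 (adjusted p = 0.0646) in 1426639_a_at and -0.55 (adjusted p = 0.0895) in 1429427_s_at, and both were called as lower with quantile normalization or median centring. The last of these shares a record with 1429428_at and gave 326.5 and 322 at E14.5, then 196, 206 and 254 at E16.5, and 282, 348 and 201 at E18.5. Its E18.5 and E16.5 arrays overlapped. The differences at E18.5 against E16.5 were 0.15, -0.46 and 0.30 in 1425229_a_at, 1426639_a_at and 1429427_s_at, with adjusted p-values of 0.716, 0.324 and 0.429.

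Lgr5, the R-spondin receptor that marks cycling stem cells of the lower follicle, was at background at E14.5. Probeset 1450988_at gave 5.87 and 29.1 at E14.5, then 366, 385 and 341 at E16.5, and 562, 774 and 823 at E18.5. The 3 stages did not overlap. It rose at least 6.24-fold at E16.5 against E14.5 (adjusted p = 2.61e-06). At E18.5 the mean was 719.6 ± 139, against 364 ± 22.1 at E16.5 (SD, n = 3 each). That difference, 0.94 ± 0.28, just missed the threshold with adjusted p = 0.0563. It passed in 8 of 20 alternatives and missed in 12, with adjusted p from 0.0144 to 0.211. Probeset 1444519_at had signals of 21.1 to 91.1 and exceeded background on 1 of the 8 arrays, E18.5 replicate 3.

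Cux1 had the most probesets and the widest spread among them, with 2 of 9 rising at E18.5. Probeset 1434683_at gave 1865 and 2433 at E14.5, then 469, 490.2 and 457 at E16.5, and 1596, 1069 and 1186 at E18.5. The E16.5 arrays were the lowest and overlapped neither other stage. It was 4.40-fold lower at E16.5 than at E14.5 (log2 -2.14 ± 0.19, adjusted p = 3.36e-06) and rose 2.63-fold at E18.5 against E16.5 (log2 1.39 ± 0.17, adjusted p = 0.00125), a call kept in every alternative run. Probeset 1441956_s_at gave 66.3 and 6.73 at E14.5, then 222, 266 and 189 at E16.5, and 1955, 651 and 1073 at E18.5. All E18.5 arrays were higher than all E16.5 arrays, with replicate 1 the highest. It rose 4.70-fold at E18.5 (log2 2.23 ± 0.47, adjusted p = 0.0156), and without E18.5 replicate 1 the log2 difference was 1.83 with adjusted p = 0.0542. Leaving out E16.5 replicate 1 or 3 also ended the call, with adjusted p of 0.0549 and 0.0709, as did a pseudocount of 1 (0.0601).

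The other 7 Cux1 probesets were not called at E18.5 against E16.5. Probeset 1437431_at gave 11.4 and 1.62 at E14.5, then 408, 442 and 401 at E16.5, and 1450 (replicate 1), 498 and 777 at E18.5. The E18.5 arrays were all higher than the E16.5 arrays, yet spread widely, and the difference of 0.96 ± 0.34 had adjusted p = 0.101. It and 1425611_a_at were at background at E14.5 and rose at least 7.11-fold and 8.09-fold at E16.5. Probesets 1424667_a_at, 1424668_a_at and 1437686_x_at rose by 2.27, 2.75 and 2.17 at E16.5 against E14.5. Probeset 1451435_at, which shares a record with the first 2 of these and has the highest mean of the 9, differed by 0.12 ± 0.19 at E16.5 against E14.5 (adjusted p = 0.632), and by -0.83 with median centring (adjusted p = 0.00603). Averaged over all 9, Cux1 was higher by 1.67 at E16.5 than at E14.5 (adjusted p = 3.75e-05). That mean takes in signals at background at E14.5, those of 1437431_at and 1425611_a_at among them, so its size is uncertain. Probeset 1425612_at exceeded background on 1 array, E14.5 replicate 2.

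**Figure D2:**
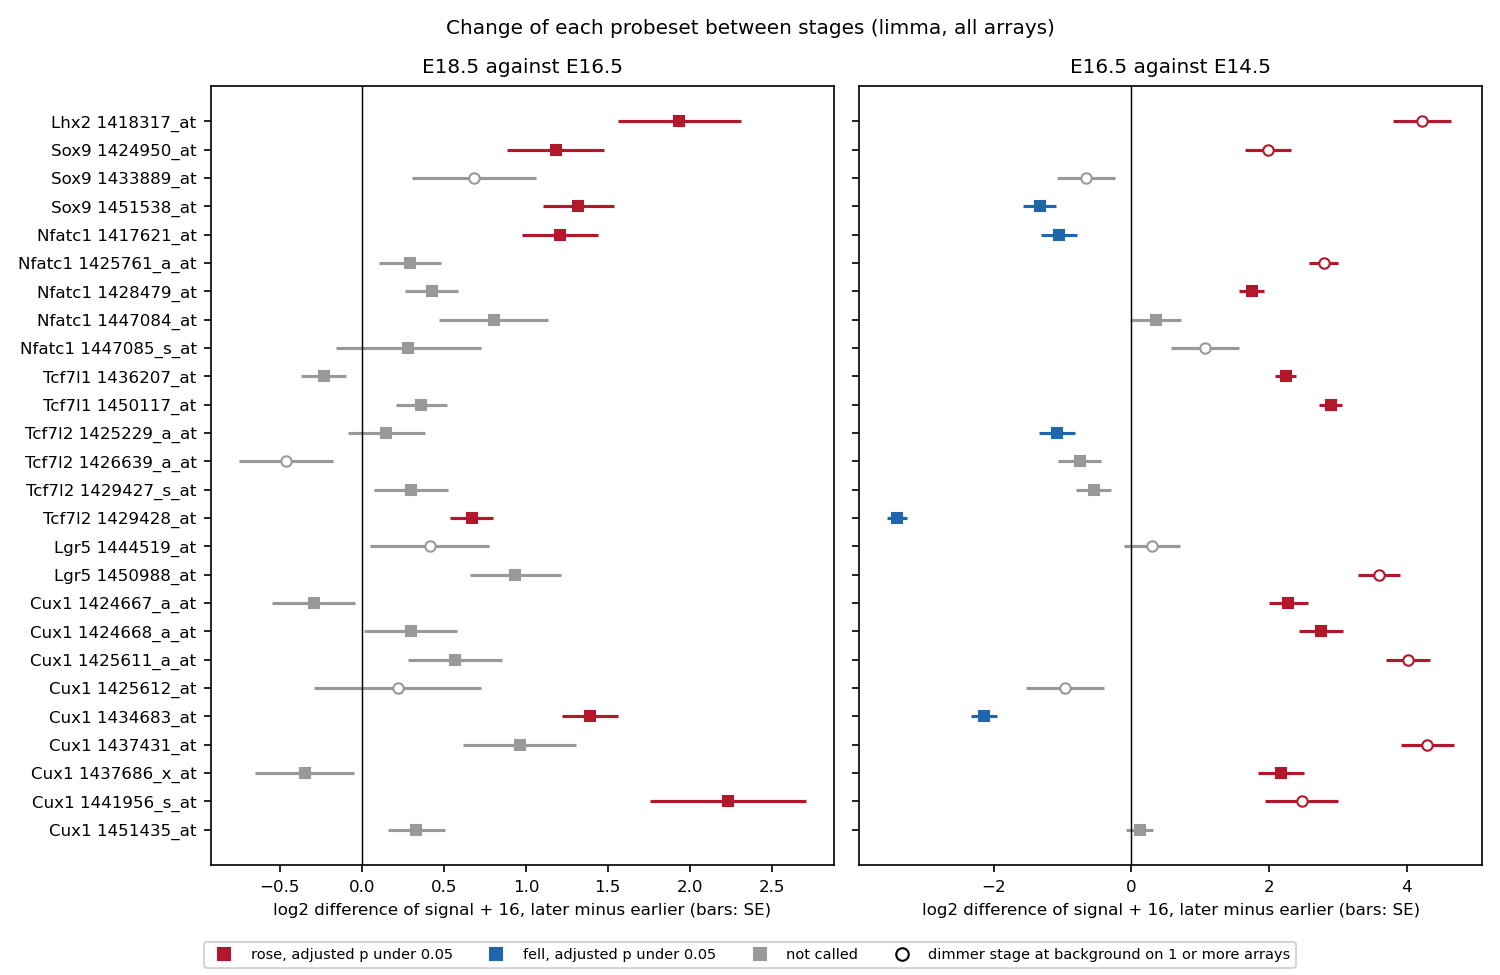
Log2 difference of signal + 16 with its SE for each of the 26 probesets, E18.5 against E16.5 on the left and E16.5 against E14.5 on the right, where positive values mean a higher signal at the later stage. Filled red and blue squares rose and fell at an adjusted p under 0.05, grey was not called, and open circles mark differences whose dimmer stage was at background on at least 1 array, with red outlines on the right for those called as higher.

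Seen across genes, the step into E16.5 split the probesets. At E16.5 against E14.5, 13 of the 26 rose, 5 fell and 8 were not called, in a comparison in which 57.6% of all probesets were called, 38.9% as higher and 18.7% as lower. The 5 that fell were Sox9 1451538_at, Nfatc1 1417621_at, Tcf7l2 1425229_a_at and 1429428_at, and Cux1 1434683_at. Arrays of the stages did not overlap for 23 of the 26, against 73.7% of all probesets. The median difference was 1.41 over the 26 and 0.38 over all probesets. Median centring of the arrays moved the split to 13 that rose and 10 that fell, and quantile normalization moved it to 13 and 7.

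At E18.5 against E14.5, 15 of the 26 rose and 4 fell, where 59.8% of all probesets were called, 42.9% as higher and 16.9% as lower. The stages did not overlap for 20 of the 26, against 69.6% of all probesets. This comparison shares its arrays with the 2 others and adds no independent evidence. Lhx2 was at least 41.4-fold higher at E18.5 than at E14.5 (adjusted p = 5.83e-07) and Lgr5 1450988_at at least 11.9-fold. Tcf7l2 1429428_at was 6.64-fold lower at E18.5 than at E14.5. Sox9 1451538_at and Nfatc1 1417621_at differed by -0.0125 (adjusted p = 0.968) and 0.15 (adjusted p = 0.636), and with median centring both were called as lower, at -1.08 (adjusted p = 0.00299) and -0.91 (adjusted p = 0.0123). With median centring the split was 12 that rose and 9 that fell.

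The probesets with the highest mean of each gene were also compared by their profile over the 8 arrays, each centred on its own mean, as a root mean square of log2 differences. Among the 7 genes, Sox9 and Nfatc1 had the closest profiles with these probesets, at 0.24. They were followed by Nfatc1 and Cux1 at 0.59, Sox9 and Cux1 at 0.63, and Lhx2 and Lgr5 at 0.74. The Sox9 and Nfatc1 probesets used both fell at E16.5 against E14.5. In that step Sox9 1424950_at rose at least 3.39-fold and Nfatc1 1428479_at rose by 1.74. The Cux1 probeset used differed by 0.12 there, whereas 6 of the 9 Cux1 probesets rose and 1 fell. Pairings with other probesets were not tested. Genes whose symbols are only clone or accession numbers were passed over. Out of the remaining 12693 genes with a mean above background, Lasp1 was nearest to both Sox9 (0.17) and Nfatc1 (0.23). Next for Sox9 came Hspa2 and Zfp365, and next for Nfatc1 came Mau2 and Slc39a10. Nearest to Lhx2 was Myh8, a muscle myosin, at 0.42, followed by Ckmt2 and Tgm5. Nearest to Lgr5 was Acta1, a muscle actin, at 0.23, followed by Slc29a1 and Krt78. Tcf7l1 had Dipk1b (0.055), Adgra2 and Ciao2b, and Tcf7l2 had Sfxn3 (0.11), Rbm14 and Nupl1. The profile of Cux1 1451435_at was nearest to Hspb8 (0.098), Sugp1 and Tamm41. These distances describe 8 arrays in 3 stages and carry the gap between the E14.5 arrays and the rest. For Lhx2 and Lgr5 they rest largely on E14.5 signals at or below background on 1 and 2 of the 2 arrays, so their order of neighbours has no firm basis.

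Array by array, the highest E18.5 signal fell on replicate 1 for 15 of the 26 probesets, on replicate 2 for 4 and on replicate 3 for 7. Replicate 1 was highest for 37.7% of all probesets. The summed signal of 18 hair matrix and inner root sheath genes was 45643, 24039 and 14977 on E18.5 replicates 1, 2 and 3, against 7487 to 8660 at E16.5. Among the probesets called at E18.5 against E16.5, Lhx2 1418317_at had its E18.5 signals in the same order of arrays. So did Sox9 1451538_at and 1424950_at and Nfatc1 1417621_at. The other called probesets, Tcf7l2 1429428_at and Cux1 1434683_at and 1441956_s_at, were highest on replicate 1 but lowest on replicate 2. Lgr5 1450988_at, which was not called, had its lowest on replicate 1 and its highest on replicate 3. The part of hair matrix RNA in the members' differences was not tested. The 8 keratinocyte markers summed to 130527 to 137909 at E18.5 and 94901 to 106652 at E16.5, with 3 of the 8 called as higher. The part of keratinocyte RNA in the members' rise was not tested.

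Cells other than keratinocytes can hold some of these transcripts, Sox9 in cartilage and Nfatc1 in endothelium and osteoclasts. The 10 chondrocyte markers summed to 666 to 795 at E18.5 and 573 to 707 at E16.5, with 2261 and 839 at E14.5, and 1 of 10, Matn3, rose at E18.5 against E16.5. Their part in the Sox9 signals was not tested. The 9 endothelial markers summed to 7409 to 7949 at E18.5 and 8002 to 9315 at E16.5, with 1 called and lower, Cdh5. Of 7 osteoclast markers, Calcr, Ocstamp, Dcstamp and Atp6v0d2 were at background at all 3 stages, and the sum was 1702 to 2028 at E18.5 and 2082 to 2188 at E16.5. The 9 dermal papilla and condensate markers summed to 6807 to 7616 at E18.5 and 7857 to 8335 at E16.5, although 3 rose and 1 fell and their median difference was 0.30. The 9 skeletal muscle markers summed to 43492 to 79116 at E18.5 and 41968 to 46729 at E16.5, with 5859 and 10749 at E14.5, although 1 rose and 2 fell at E18.5 against E16.5 with a median of -0.39. Of 6 melanocyte markers 5 rose at E18.5 against E16.5, with a median of 1.17 and sums of 12808, 9942 and 7671 on E18.5 replicates 1, 2 and 3, against 3299 to 4664 at E16.5. Of 8 macrophage markers 3 rose and of 8 dermal fibroblast markers 3 rose, with medians of 0.43 and 0.26. The part of these cell types in the members' differences was not tested.

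**Figure D3:**
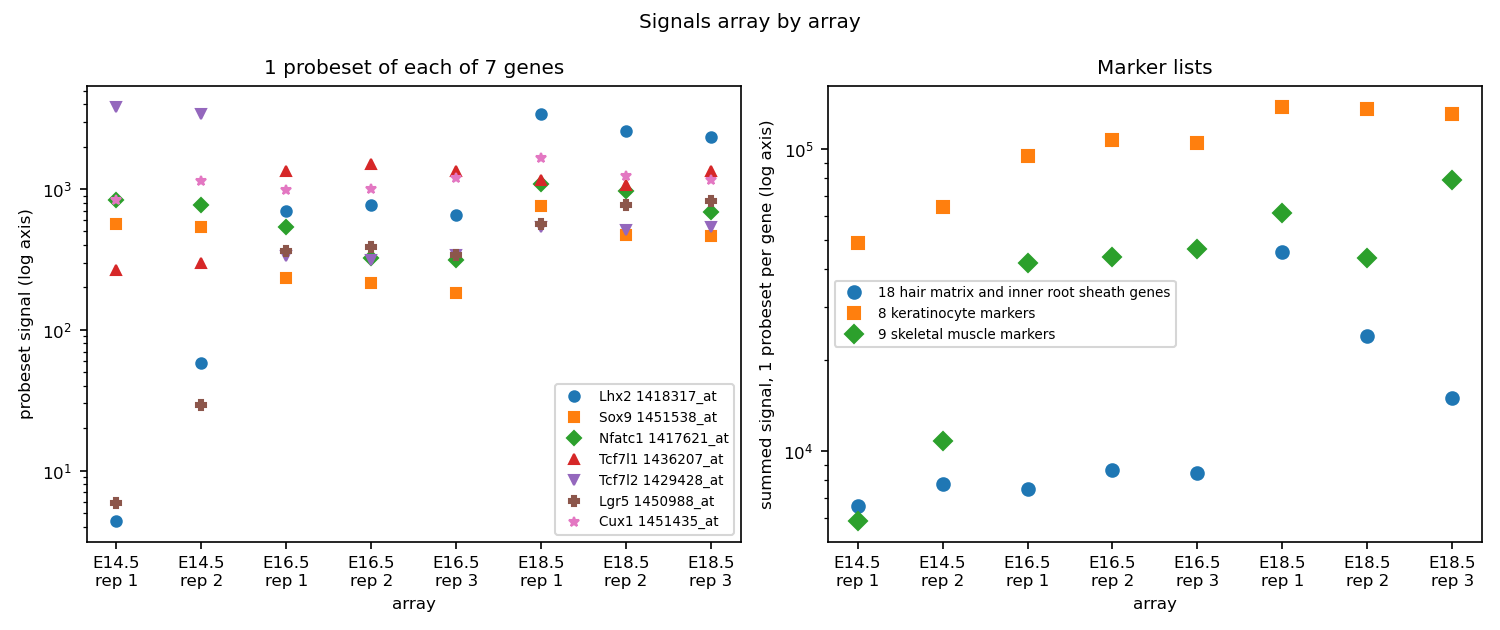
Left, signal of 1 probeset of each of the 7 genes on each array, on a log axis. Right, summed signals of 18 hair matrix and inner root sheath genes, 8 keratinocyte markers and 9 skeletal muscle markers on the same arrays, with the hair matrix sum at 45643 on E18.5 replicate 1 and 14977 on replicate 3.

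Genes of the surrounding pathways were read with 1 probeset each, the one with the highest mean, at E18.5 against E16.5. Of all 18193 genes, 12.9% were called, 7.28% as higher and 5.58% as lower, and the median difference was 0.12. Among 22 other bulge and follicle stem cell markers 7 rose and 0 fell, with a median of 0.30. Vdr, the vitamin D receptor, had 566 ± 230.0 at E18.5 and 146 ± 18.8 at E16.5 (SD, n = 3 each), a log2 rise of 1.78. Foxc1, a bulge quiescence factor, rose by 1.42, and Lgr6, Tbx1, Fst, Dkk3 and Nfib also rose. Cd34 and Krt15, surface and keratin markers of the bulge in the mature follicle, differed by 0.31 (adjusted p = 0.144) and 0.28 (adjusted p = 0.256). Krt15 is also among the keratinocyte markers used here. In 21 placode and bud markers 7 rose and 0 fell, with a median of 0.49, led by the homeobox genes Msx2 (1.91) and Hoxc13 (1.87) and including Shh, Ptch1, Sostdc1, Bmp4 and Krt17.

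On the Wnt side of the pathway 4 genes were called over 3 lists, a share near that of all genes. Of 14 TCF/LEF and β-catenin cofactor genes, 1 rose, Ctnnb1, which encodes β-catenin (0.54), and the median was -0.02. Lef1, the TCF/LEF factor of the placode and matrix, differed by -0.19 (adjusted p = 0.394). Of 16 Wnt target and feedback genes 1 rose, Apcdd1, a Wnt inhibitor, by 1.65, and 1 fell, Axin2, a feedback gene, by 0.72. Among 8 LGR receptors and R-spondins, Lgr6, a receptor related to Lgr5, was the 1 called gene, at 1402 ± 459 at E18.5 and 547 ± 67.4 at E16.5 (SD, n = 3 each, log2 1.29 ± 0.21, adjusted p = 0.005). Lgr4, the other receptor of the family, differed by 0.25 (adjusted p = 0.239).

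Among partners and relatives of the remaining factors, 2 or 3 genes were called in each of the calcineurin, LIM homeodomain and Sox lists. Over all genes 12.9% were called. More were called in the hair matrix and inner root sheath list. Of 16 calcineurin and NFAT genes 2 rose, Dyrk1a, a kinase of NFAT proteins (0.56), and Fkbp1a, the FK506-binding protein (0.48), and Nfat5 fell by 1.22. Of 20 LIM homeodomain paralogues and cofactors Ssbp2 rose by 0.63 and Lmo2 fell by 0.59. Of 15 other Sox genes Sox4 rose by 0.57, and Sox11 and Sox12 fell by 1.06 and 0.67. Of 18 hair matrix and inner root sheath genes 10 rose and 2 fell, with a median of 1.89. Krt25 and Krt71, keratins of the inner root sheath, were at least 88.5-fold and 53.2-fold higher at E18.5 than at E16.5, while Ovol1 fell by 1.03 and Elf5 was at least 2.77-fold lower. Msx2 and Hoxc13 belong both to this list and to the placode list, and Lgr6 belongs to 2 lists.

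The same lists were read at E16.5 against E14.5, where 57.9% of all genes were called, 37.1% as higher and 20.8% as lower, with a median of 0.29. Among the bulge markers 13 rose and 5 fell, and Krt15 rose by 1.73 while Cd34 fell by 0.62. Among the placode and bud markers 11 rose and 5 fell, among the hair matrix genes 7 and 2, and among the LIM homeodomain genes 9 and 4. Of the TCF/LEF and cofactor genes 4 rose and 6 fell, among them Lef1, which fell by 1.74, and Ctnnb1, which fell by 0.72. The Wnt target and feedback genes were evenly split, with 7 that rose and 7 that fell, and Apcdd1 (log2 -1.56) and Axin2 (log2 -0.65) fell. Of the LGR and R-spondin genes 4 rose and 2 fell, and Lgr6 rose by 1.47 while Lgr4 fell by 0.50. The calcineurin and NFAT genes counted 5 that rose and 8 that fell, and the Sox genes 6 and 2, where Sox11 fell by 4.15. These splits moved with the setting, median centring and quantile normalization among them: over 18 alternatives 9 to 13 bulge, 5 to 11 placode, 2 to 7 Wnt target and 0 to 5 LGR genes rose. Endothelial markers, relevant to Nfatc1, rose in 8 of 9 with a median of 2.53, and their part in its differences was not tested.

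**Figure D4:**
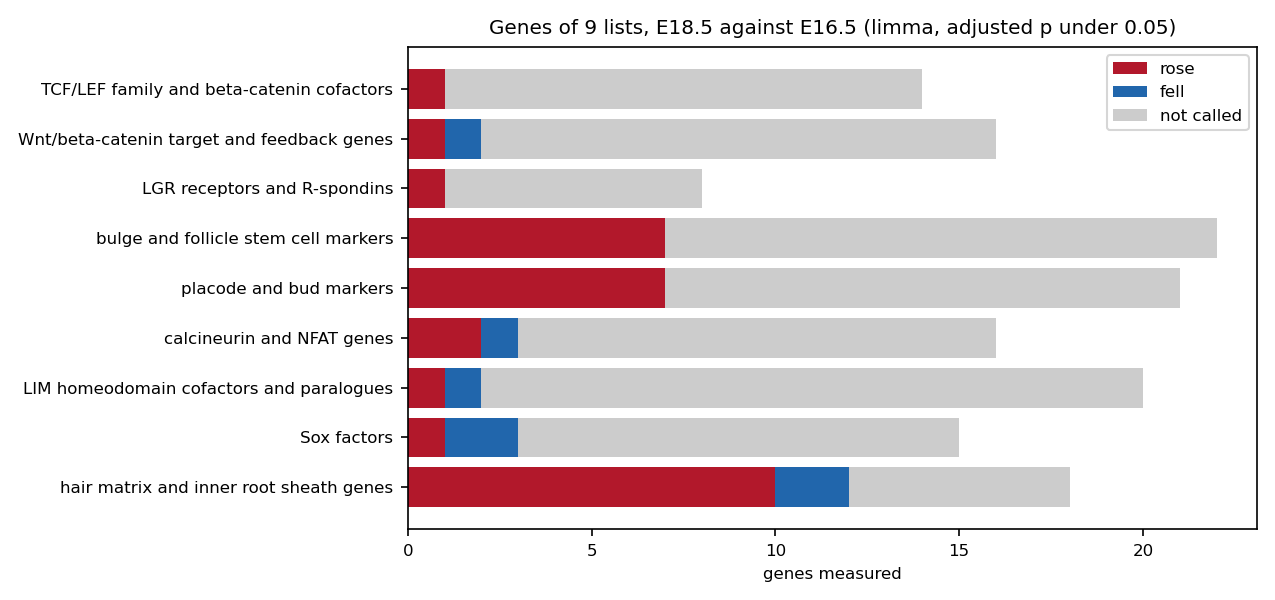
Number of measured genes that rose (red), fell (blue) or were not called (grey) at E18.5 against E16.5 in 9 gene lists, with the 7 factors themselves left out. The longest red bar is that of the 18 hair matrix and inner root sheath genes, with 10 that rose, followed by the bulge and placode lists with 7 each.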

How the data were processed

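Total RNA of wild-type dorsal skin was isolated with Trizol, amplified with random hexamers and labelled as sense single-stranded DNA, per the labels' protocols, which give the same steps for all 8 arrays. This array type is designed for 3′ expression targets, and whether that labelling was the one hybridised to each array is not settled here, so what part of a transcript a signal reflects is uncertain. The deposited values are signal intensities on a linear scale for 45101 probesets. Tools named are Affymetrix Expression Console 1.1 and PLIER 2.0, per the submitters' processing notes, with no role given. The sources used here do not say how background was corrected or arrays normalized. Probesets with several symbols (932) or none (9211) and 64 control probesets were left out, and each of the 8 value columns was used (0 others).

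From these, log2(signal + 16) was fitted with 1 mean per stage on all 8 arrays in limma 3.58.1 (R 4.3.3) with a variance trend, and p-values were adjusted over 34945 probesets by Benjamini-Hochberg (threshold 0.05). Where a stage had an array at or below background, folds are bounds against the higher of signal and background. The number of arrays limits precision. A simulation for E18.5 against E16.5 changed 200 of 34945 probesets. In it, 26% of log2 changes of 1 and 64% of changes of 2 were recovered, with 5 unchanged probesets called. In the data 3742 probesets were called. The adjustment is stricter when fewer probesets change, so these rates do not give the recovery in the data. Alternatives were other pseudocounts, normalizations, filters and variance models, array weights, the stages alone, probeset averages and leaving out each array.

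The factors, gene lists and tests were chosen with earlier results of these data known. All probesets of the 7 genes are named. From each list, the 2 called genes with the largest rise and the 2 with the largest fall at E18.5 against E16.5 are named, provided the higher stage lay above background on all its arrays. The 3 genes with the nearest profile are named for each factor. Tbx1, Fst, Dkk3, Nfib, Shh, Ptch1, Sostdc1, Bmp4, Krt17, Cd34, Krt15, Lef1, Lgr4, Matn3 and Cdh5 were named after their values were seen.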

Additional observations from a re-analysis of the deposited data

How the results depend on the processing

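Of 1416 alternative values of single probesets, 1320 kept direction and side of the threshold, 35 lost a call, 33 gained one and 28 changed sign, 23 of these with neither value called. Leaving out single arrays gave 3 to 8 called members at E18.5 against E16.5, 18 to 20 at E16.5 against E14.5 and 15 to 20 at E18.5 against E14.5. Over all probesets it gave 1208 to 4120 at E18.5 against E16.5 (1662, 1563 and 1208 without E16.5 replicates 1, 2 and 3), and 2435 were called with no variance trend. The share of called probesets that rose was 58.6% as deposited, 50.7% with quantile normalization and 38.5% with median centring at E18.5 against E16.5, where median centring left 7 members rising and 0 falling and quantile normalization 6 and 0. That share was 67.5%, 51.4% and 33.1% at E16.5 against E14.5 and 71.7%, 51.4% and 32.9% at E18.5 against E14.5, where quantile normalization gave 12 members that rose and 6 that fell. Centring moved the median log2 difference of all probesets from 0.38 to -0.57 at E16.5 against E14.5 and from 0.59 to -0.48 at E18.5 against E14.5. For the cases of changed sign the cause was not tested. With quantile normalization, Tcf7l2 1425229_a_at was -0.053 and Cux1 1425612_at -0.093 at E18.5 against E16.5. Likewise Lgr5 1444519_at was -0.066, Nfatc1 1447084_at -0.35 and Cux1 1451435_at -0.14 at E16.5 against E14.5, and Nfatc1 1417621_at was -0.14, Sox9 1433889_at -0.67 and Lgr5 1444519_at -0.027 at E18.5 against E14.5. With median centring, Lgr5 1444519_at was -0.65, Nfatc1 1447084_at -0.60 and Cux1 1451435_at -0.83 at E16.5 against E14.5, and Nfatc1 1417621_at was -0.91, Sox9 1433889_at -1.04, Lgr5 1444519_at -0.36 and Cux1 1451435_at -0.62 at E18.5 against E14.5. Without single arrays, Cux1 1425612_at ranged from -0.21 to 0.43 and Nfatc1 1447085_s_at from -0.026 to 0.74 at E18.5 against E16.5. Cux1 1451435_at ranged from -0.10 to 0.34 at E16.5 against E14.5. At E18.5 against E14.5 the ranges were -0.24 to 0.11 for Sox9 1451538_at, -0.31 to 0.36 for Sox9 1433889_at and -1.52 to 0.026 for Cux1 1425612_at. Sox9 1433889_at was -0.074 at E18.5 against E14.5 with a pseudocount of 1. Averaging each gene's probesets gave 0.065 for Tcf7l1 at E18.5 against E16.5, 0.98 for Nfatc1 at E16.5 against E14.5 and 1.06 for Sox9, 1.58 for Nfatc1 and 2.26 for Cux1 at E18.5 against E14.5, all of the last 4 called. The averages of Sox9, Nfatc1 and Cux1 take in probesets at background at E14.5. With a pseudocount of 1, Lhx2 (adjusted p = 0.0939) and Cux1 1441956_s_at (0.0601) lost their E18.5 calls, and Sox9 1424950_at lost its call with quantile normalization (0.0554) and with no variance trend (0.0526). Bulge markers called at E18.5 against E16.5 were 4 to 9, placode markers 5 to 9, hair matrix genes 7 to 13, NFAT genes 1 to 5, LIM genes 0 to 3 and Sox genes 1 to 4 over 18 alternatives. No paired analysis was possible because the labels give no pairing of arrays across stages. The replicate numbers follow accession order and pair no arrays either.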
